A study of Caenorhabditis elegans with 4 samples.

Results

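RNA polymerase II peaks in the centre of chromosome V of early Caenorhabditis elegans embryos are described here: 316 regions listed in both replicates, of 3852 such regions in the whole series. They were chosen as the replicate 1 peaks of V whose midpoint lies from position 5231038 to 15693112, which is the central 50% of the chromosome, and which overlap a replicate 2 peak by at least 1 bp. Both peak lists were thus used to choose them, so the positions, widths and overlaps below are descriptions and carry no test. The embryos were wild-type N2, the Bristol laboratory strain, prepared by bleaching from adults grown in liquid culture at 20 °C, and the labels give the population as males and hermaphrodites mixed. The precipitated samples (2, called replicates 1 and 2) were made with the antibody 8WG16, while the 2 samples of input DNA are not analysed here. Each sample pools many embryos of mixed cell types, and whether the replicates are separate preparations is not stated in the labels. Positions follow WormBase WS220, and the number of reads behind the lists is unknown.

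RNA polymerase II transcribes protein-coding genes. Its largest subunit ends in a repeated C-terminal domain that is unphosphorylated when the enzyme is recruited to promoters and becomes phosphorylated as it initiates and elongates, and 8WG16 binds mainly the unphosphorylated form. In this species the centres of the autosomes recombine little and are rich in conserved genes with broad expression, whereas the arms recombine more and hold more repeats. Chromosome V is known for its many chemoreceptor genes. Genes under the peaks are not named, because no gene table of build WS220 was used.

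Nearly every replicate 1 peak of the centre was found in replicate 2. Of 337 replicate 1 peaks with their midpoint there, 316 (93.8%, exact 95% binomial interval 90.6 to 96.1%) had a counterpart and 21 had none. Over the whole series, 3852 of 4343 replicate 1 peaks had one. In the arms, the outer parts of V, 212 of 272 (77.9%, 72.5 to 82.7%) had one. Replicate 2 peaks covered 16.4% of the centre and 9.17% of the arms, and the part of this in the shares was not tested. In the other direction the order of centre and arms was turned round. Of 482 replicate 2 peaks in the centre, 277 (57.5%, 52.9 to 61.9%) overlapped a replicate 1 peak, and in the arms 199 of 290 (68.6%, 62.9 to 73.9%) did. The intervals cover counting error only, neighbouring peaks are not independent, and these differences between centre and arms were not tested. The overlap required was far exceeded: the smallest overlap of a member was 910 bp, and each member had at least 50% of its length under replicate 2 peaks.

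The members lay at 30.2 per Mb in the centre of V, against 20.3 per Mb for shared peaks in its arms, a ratio of 1.49. The left arm held 21.8 per Mb and the right arm 18.7 per Mb. The ratio of centre to arms differed between the replicates. With all replicate 1 peaks it was 1.24 (32.2 per Mb in the centre and 26.0 in the arms), and with all replicate 2 peaks it was 1.66 (46.1 and 27.7 per Mb). In the series-wide list, a list of shorter peaks deposited for the series as a whole, it was 1.21. The members covered 1.02 Mb, or 9.75% of the centre, and the shared peaks of the arms covered 7.05% of the arms. Among the centres of the other 5 chromosomes, only X was sparser, with 22.3 shared peaks per Mb. The others ran from 38.8 per Mb on IV to 59.3 on III.

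Along the centre the number of members differed from window to window. Whether it differed by more than random placement gives was not tested. Among the 9 complete 1 Mb windows, the number of members ran from 22 (7 to 8 Mb) to 38 (9 to 10 Mb), with a median of 34. The stretch from 6 to 9 Mb held 74 members, or 24.7 per Mb, and that from 9 to 13 Mb held 143, or 35.8 per Mb. Each replicate list alone gave the same order, but both lists were used to choose the members, so this is not separate support. Replicate 1 had 28.7 and 36.5 peaks per Mb in these stretches, and replicate 2 had 39 and 52.5. These stretches were chosen after the counts were seen. The covered share varied less, from 8.43% at 8 to 9 Mb to 12.5% at 9 to 10 Mb.

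**Figure D1:**
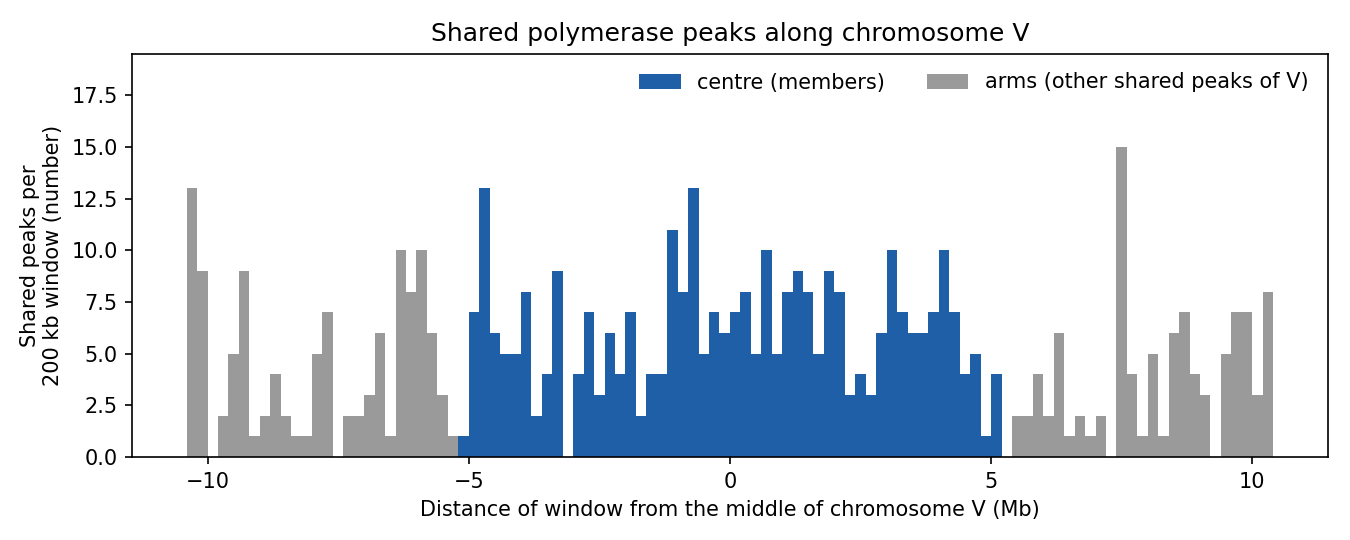
Number of shared peaks in windows of 200 kb along chromosome V, by distance from the middle of the chromosome in Mb. Blue bars are members in the centre (30.2 per Mb), grey bars the shared peaks of the arms (20.3 per Mb), and empty windows occur in both.

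In windows of 100 kb the counts ran from 0 to 10 members over 103 windows. Their mean was 3.06 and their variance 3.82, a variance over mean of 1.25. No member lay in 14 windows, and 25 windows with 5 or more members held 141 of 315. Of the 14 windows without a member, 11 held a replicate 2 peak and 12 a series-wide peak. The empty windows formed 12 runs, none longer than 2 windows (5.3 to 5.5 Mb and 7.3 to 7.5 Mb). The fullest window, at 9.7 to 9.8 Mb, held 10 members between positions 9703928 and 9790479. They were 1100 to 5688 bp wide, and 6 replicate 2 peaks met them. A single replicate 2 peak from 9725027 to 9734641 met 4 of them. The window with the largest covered share (22.6%), from 13100001 to 13200000, held 3 members, one of them the widest of all.

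Most members were a few kilobases wide. The median width was 2324 bp (interquartile range 1419 to 4198 bp), the narrowest measured 960 bp and the widest 15753 bp. The replicate 2 peaks that met a replicate 1 peak there had a median of 3613 bp. Members under 2 kb numbered 136, or 43% of all, but held 18.8% of the covered bases. Those of 2 to 5 kb numbered 117 (36.7% of the bases), those of 5 to 10 kb 58 (38.4%), and those over 10 kb 5 (6.15%). The arms, with fewer shared peaks, had 10 over 10 kb. This order depended on the list. All replicate 1 peaks gave 5 over 10 kb in the centre and 11 in the arms. All replicate 2 peaks gave 26 of 482 in the centre and 17 of 290 in the arms. The median width of shared peaks in the arms was 2304.5 bp, and in the centres of the other chromosomes it ran from 2309 bp (IV) to 2432 bp (II). Median widths thus differed little between these parts, while densities did.

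Members that paired with a single replicate 2 peak, which itself met no other replicate 1 peak, numbered 207. Their median width was 2159 bp in replicate 1 and 3307 bp in replicate 2. Of these, 161 were wider in replicate 2 and 46 in replicate 1. The median ratio of replicate 2 to replicate 1 was 1.11 (interquartile range 1.02 to 1.50), and 118 pairs (57.0%) had a ratio from 0.8 to 1.2. The pairs that differed most were narrow in replicate 1. Of 95 members under 2 kb, 22 were at least 2 times as wide in replicate 2. Of 45 members of 5 kb or more, 1 was. Width in replicate 1 both sorted these members and divided the ratio, which by itself favours high ratios among narrow members. In addition, no replicate 2 peak with a counterpart was under 1031 bp, which limits how low the ratio of the narrowest members can be. A low ratio did occur under 2 kb: the member from 12180447 to 12182440 (1994 bp) had 0.66. The part of these limits in the pattern was not tested. The highest ratio was 8.29, at 14119838 to 14121512 in replicate 1 (1675 bp), where replicate 2 ran from 14110666 to 14124559 (13894 bp). Just beside it, a member from 14125324 to 14127075 (1752 bp) faced a replicate 2 peak from 14125272 to 14137579 (12308 bp). No member was under 0.5 times as wide in replicate 2, and the lowest ratio was 0.52, at 9633692 to 9637036. Spearman's rho of the widths was 0.80 over these 207 pairs, which lie on a single chromosome and were chosen by their overlap.

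**Figure D2:**
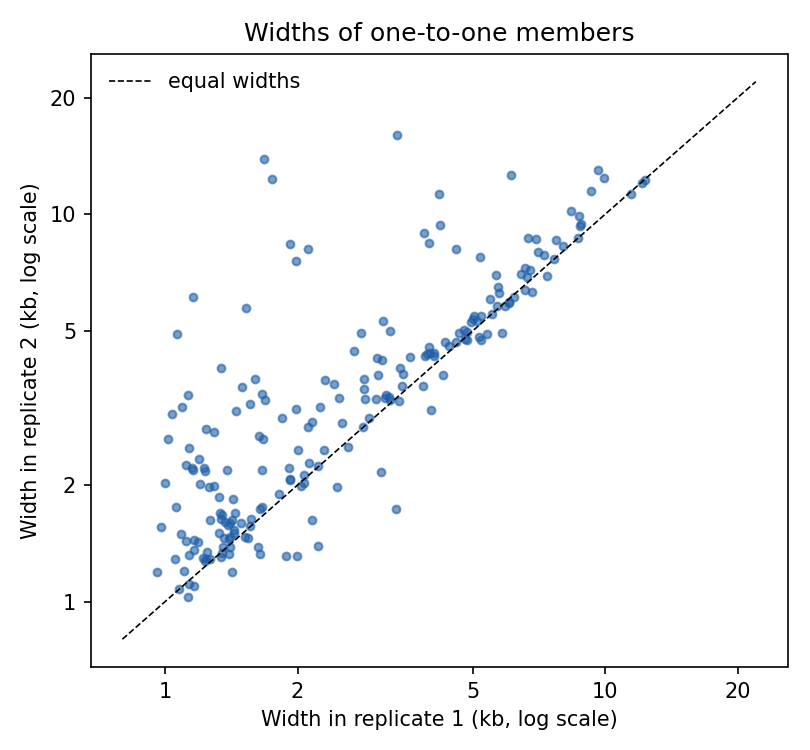
Width of 207 single-partner members in replicate 1 (x axis, kb, log scale) and replicate 2 (y axis, kb, log scale), with a dashed line at equal widths. Points above the line (161) are wider in replicate 2, and most of the distant ones are narrow in replicate 1.

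Edges of these pairs lay close together. The median offset between the replicates, without regard to direction, was 182 bp at the left edge and 170 bp at the right edge. The left edge of replicate 2 lay farther out in 154 of 207 pairs and the right edge in 152. Offsets over 1000 bp occurred at 26 left and 29 right edges. Over all 316 members, replicate 2 peaks covered 96.9% of the bases, and 186 members lay wholly under them.

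The widest member ran from 13162546 to 13178298 (15753 bp). In replicate 2 a single peak from 13158141 to 13182425 (24285 bp) ran across it and met its neighbours on both sides. The next was 12290 bp wide, from 7803448 to 7815737, and replicate 2 gave nearly the same extent, from 7803327 to 7815604 (12278 bp). The third ran from 8887992 to 8900095 (12104 bp), with replicate 2 from 8888007 to 8900019 (12013 bp). The fourth ran from 10957401 to 10968874 (11474 bp) and the fifth from 6881532 to 6892608 (11077 bp), where replicate 2 extended 15172 bp. These 5 are the members over 10 kb. The other 5 of the 10 widest were 9916, 9615, 9279, 8806 and 8767 bp wide in replicate 1 and 12404, 12980, 11483, 9416 and 9310 bp in replicate 2. They started at 8845957, 14500858, 6220636, 9845066 and 10711299 in replicate 1. In all of the 10 widest, at least 98.4% of the member lay under replicate 2 peaks. The 5 narrowest members, 960 to 1037 bp wide, started at 7182691, 10142919, 6213488, 12726609 and 5851250. All 5 were wider in replicate 2, from 1196 to 3060 bp. These 5 were picked by their width in replicate 1, so no conclusion is drawn from the comparison. The narrowest replicate 2 peak with a counterpart measured 1031 bp.

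Gaps between neighbouring members varied widely. The 315 gaps, taken from the end of a member to the start of the next, had a median of 13300 bp and a mean of 29493 bp (SD 43052 bp). The shortest measured 16 bp and the longest 328851 bp. The median was 25785 bp when each peak had to cover 50% of the other, and 6975 bp in replicate 2 alone. Gaps up to 1 kb made up 22.5% (71 gaps), and 33 of them were of 200 bp or less. Between 2 and 50 kb, 28 gaps were of up to 5 kb, 26 of 5 to 10 kb, 35 of 10 to 20 kb and 63 of 20 to 50 kb. Gaps over 50 kb numbered 67, or 21.3% of all, and their summed length of 6.38 Mb was 61.0% of the centre. In the arms the median gap between shared peaks was 10204 bp, shorter than in the centre, but the mean was 43807 bp and 26.7% of gaps exceeded 50 kb. The order of the medians depended on the list. With all replicate 1 peaks they were 11691 bp in the centre and 5566 bp in the arms. With all replicate 2 peaks the order was turned round, with 6975 bp in the centre and 8007 bp in the arms. For shared peaks, the centres of the other chromosomes had medians from 4020 bp on III to 21490 bp on X.

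Most of the shortest gaps were breaks in replicate 1 within a longer peak of replicate 2. In 30 of the 33 gaps up to 200 bp, both neighbours met the same replicate 2 peak. The same was true of 49 of the 71 gaps up to 1 kb and of 57 gaps in all, the longest of them 3252 bp. In the other 258 gaps the median was 20490 bp. Members bridged in this way numbered 102, under 46 replicate 2 peaks of median width 7614 bp, against 3296 bp for the 231 replicate 2 peaks that met a single member. The series-wide list ran across 11 of the gaps, the longest of which measured 381 bp. The bridging peaks with most members (4 each) ran from 10464522 to 10478616 and from 9725027 to 9734641.

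**Figure D3:**
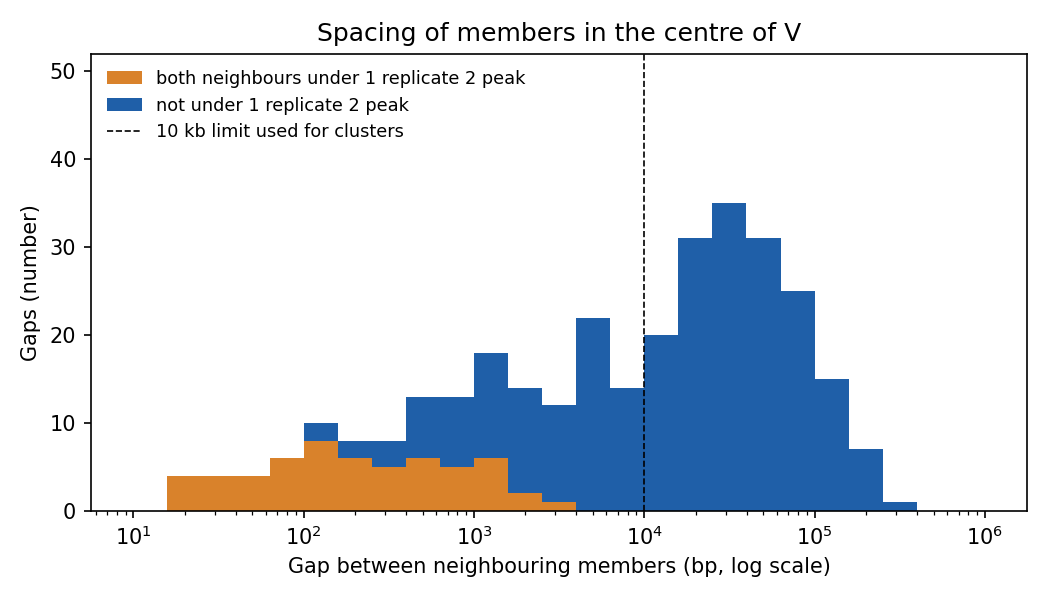
Histogram of the 315 gaps between neighbouring members (x axis, bp, log scale; y axis, number of gaps), with the 10 kb limit for clusters dashed. Orange marks the 57 gaps whose neighbours both met a single replicate 2 peak, all of at most 3252 bp, and blue the other 258, whose median is 20490 bp.

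The longest gap, of 328851 bp, ran from 7241239 to 7570089. It held no replicate 1 peak, 4 replicate 2 peaks and 6 series-wide peaks. The next ran from 5276572 to 5501783 (225212 bp) and held 1 replicate 1 peak without counterpart, 3 replicate 2 peaks and 6 series-wide peaks. The third, from 15191757 to 15391691 (199935 bp), held 1 replicate 1 peak, 1 replicate 2 peak and 4 series-wide peaks. The fourth, from 6229915 to 6416501 (186587 bp), held 2 peaks of each replicate and 14 series-wide peaks. The fifth, from 12974698 to 13157998 (183301 bp), held 8 replicate 2 peaks over 9.85% of its length and 18 series-wide peaks. Few long gaps were empty in the other lists. Of the 67 gaps over 50 kb, 53 held a replicate 2 peak and all but 5 held a series-wide peak. The longest stretch between members without a peak in any of the 3 lists measured 155710 bp, from 6901968 to 7057677.

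When neighbours at most 10 kb apart were joined, the 316 members fell into 166 groups. Lone members numbered 78 (24.7%), and 98 members (31.0%) stood in pairs. The other 140 members (44.3%) formed 39 clusters of 3 or more, of which 22 had 3 members, 12 had 4, 4 had 5 and 1 had 6. A cluster spanned 15105 bp at the median, from 5369 to 32703 bp, and members filled 71.4% of it at the median. The clusters together spanned 6.08% of the centre. When each peak had to cover 50% of the other, there were 16 clusters with 25.6% of the members, and replicate 2 alone gave 65 clusters. In 7 of the 39, a single replicate 2 peak met every member. Lone members were wider, with a median of 2840 bp, than members in pairs (2304 bp) or in clusters (2139 bp). A short break within a replicate 1 peak gives members that are both narrower and grouped. The part of such breaks in these widths was not tested. Clustered members made up 54.3% of the left part of the centre and 35.2% of the right part, divided at its middle. This difference was computed for the members at the 10 kb limit only, and it was not tested.

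In the arms, 30 clusters held 56.1% of the shared peaks, and the largest had 9. The centres of the other chromosomes had 33.3% of shared peaks in clusters on X and 71.9% on III, with largest clusters of 8 to 18. The centre of V thus had the smallest top cluster (6) of the 6 centres, and 3.73 clusters per Mb against 2.87 in the arms of V. With all replicate 1 peaks its largest cluster had 9. Density differed between these parts too, and its part in the cluster shares was not tested.

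The largest cluster ran from 7213600 to 7241238 (27639 bp) and lay at the left border of the longest gap. Its 6 members were 1637, 6646, 1162, 5413, 2125 and 1664 bp wide from left to right, with gaps of 5287, 276, 1734, 118 and 1577 bp between them. Replicate 2 had 9 peaks over the same span and covered 84.7% of it, against 67.5% for the members. Another 4 clusters had 5 members each. The most compact, from 12030337 to 12050272 (19936 bp), held 5 members of 1880 to 5570 bp with gaps of 223 to 1342 bp. It was the only 1 of these 5 clusters in which members covered more of the span (88.7%) than replicate 2 did (75.7%). One of its members, from 12043253 to 12047050, had the lowest share of all under series-wide peaks, 24.99%. The cluster from 6416502 to 6437953 (21452 bp) bordered the fourth longest gap. Its widest member, from 6422347 to 6430027 (7681 bp), was parted from the next by 61 bp, and replicate 2 listed both as a single peak from 6421986 to 6432227. The other 2 were looser. The cluster from 5825475 to 5852286 (26812 bp) had gaps of 191 to 6062 bp and lay under members over 60.9% of its span. The cluster from 10334312 to 10367014 (32703 bp), the longest of all 39, had gaps of 131 to 7572 bp and lay under members over 48.8%.

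**Figure D4:**
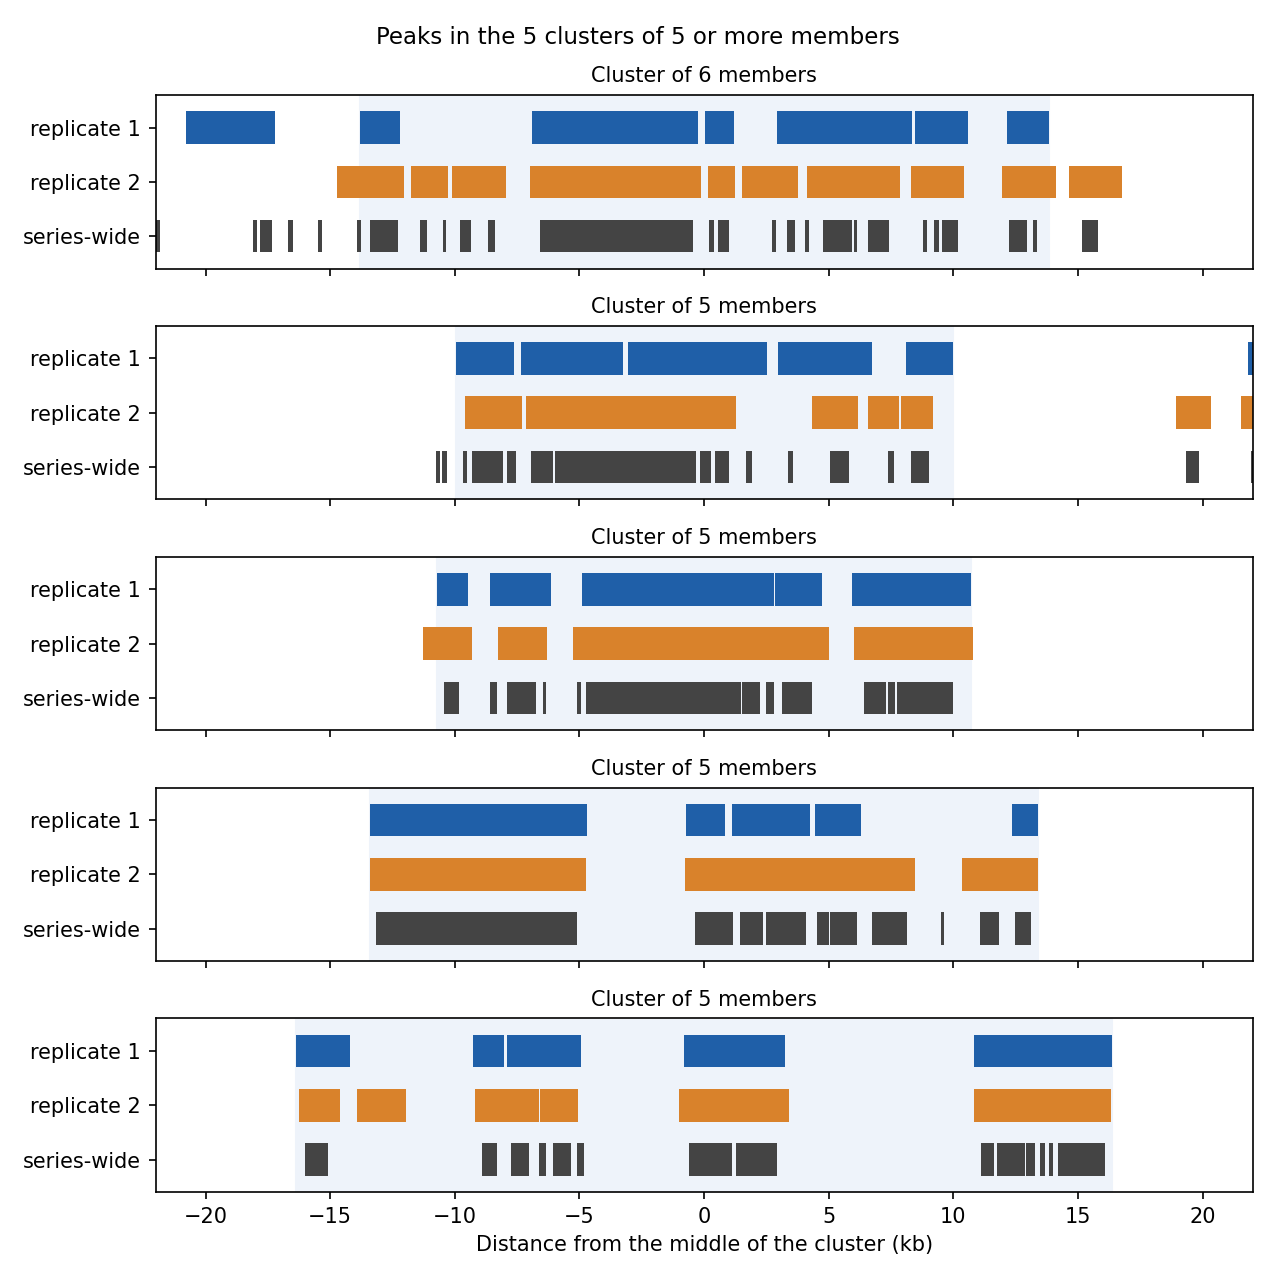
Peaks of replicate 1 (blue), replicate 2 (orange) and the series-wide list (dark grey) in the 5 clusters of 5 or more members, by distance from the middle of each cluster in kb, with the span of the cluster shaded. Replicate 2 peaks run across some breaks between members, as at the 61 bp gap in the middle panel, and the series-wide list divides most members into shorter peaks.

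Each of the 316 members met at least 1 series-wide peak. The lists belong to the same series, and the samples behind the series-wide list are not named. This overlap can therefore not be taken as independent of the choice of members. A single series-wide peak lay in 130 members, 2 in 82, 3 in 41, 4 in 35 and 5 or more in 28, with a mean of 2.28. The 711 series-wide peaks met had a median width of 686 bp (interquartile range 317 to 1109 bp), against 404 bp for all 1342 series-wide peaks of the centre. Gaps between series-wide peaks inside a member had a median of 153.5 bp and reached 1711 bp. The series-wide peaks covered 75.0% of the member bases, and 229 members contained all their series-wide peaks within their edges. In the arms the mean was 2.36 series-wide peaks per shared peak and the covered share 77.5%. In the centres of the other chromosomes the mean ran from 2.33 on IV to 2.63 on III, and the share from 72.7% on II to 75.6% on X.

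Wider members met more series-wide peaks up to a width of 10 kb, and more of their bases were covered. Members under 2 kb met 1.42 on average and were covered over 63.1% of their bases, those of 2 to 5 kb met 2.62 (71.3%) and those of 5 to 10 kb met 3.53 (82.3%). The 5 members over 10 kb met 3.40 on average (87.9%). Spearman's rho between width and number was 0.55 over the 316 members, in which a wider member has more room for peaks. Where a member held 2 or more, its widest series-wide peak was placed in 1 of 3 equal sections of the member. It lay in the central section in 94 of 186 members, in the left section in 51 and in the right section in 41. In these 186 members it held a median of 63.7% of the bases under series-wide peaks. A peak that fills much of a member has little room to lie in an outer section, so no conclusion is drawn from the placement.

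**Figure D5:**
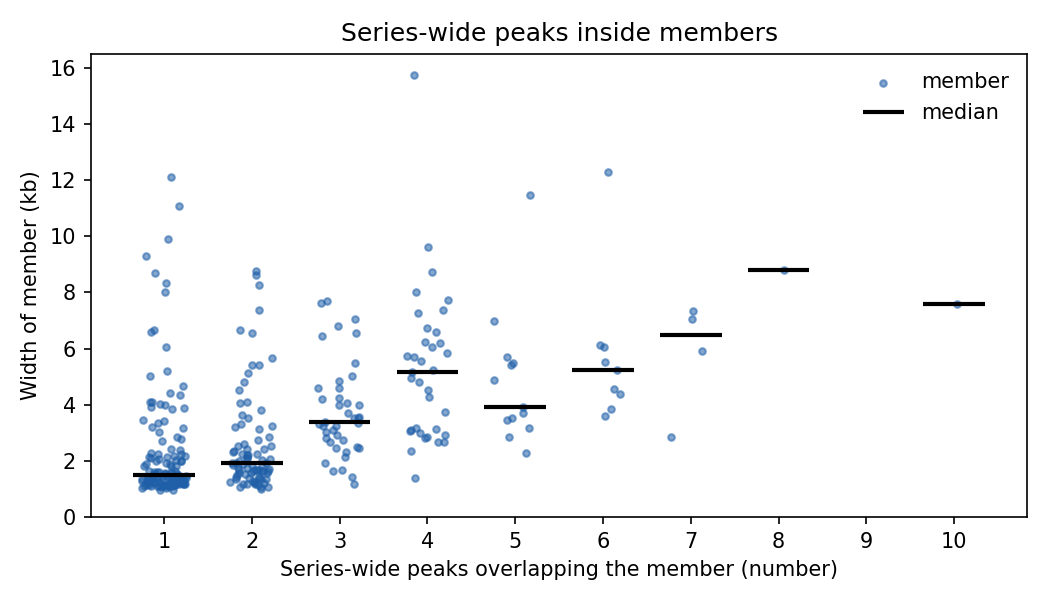
Number of overlapping series-wide peaks (x axis) and width in kb (y axis) of each of the 316 members (points, spread sideways for legibility), with the median width at each number as a black line. The median is 1502 bp at 1 series-wide peak and 5156 bp at 4, and some of the widest members hold a single series-wide peak.

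Broad members were of unlike inner structure. Of the 63 members of 5 kb or more, 9 were filled over at least 90% by a single series-wide peak, and 15 held 5 or more series-wide peaks. The unbroken ones were 5205 to 12104 bp wide. The widest, from 8887992 to 8900095, held a single series-wide peak of 11396 bp over 94.2% of its length. To its left, past a gap of 32119 bp, another unbroken member ran from 8845957 to 8855872 and was filled over 92.0%. Other members held many series-wide peaks. The first, from 9637530 to 9645098 (7569 bp), held 10 such peaks over 50.9% of its length, the widest of them 1294 bp. Its right neighbour across a gap of 202 bp, from 9645301 to 9651218 (5918 bp), held 7 over 47.7%. The member from 9845066 to 9853871 held 8 over 79.3%, and those from 8955586 to 8962903 and from 9262984 to 9270035 held 7 each over 71.7% and 81.9%. A narrower member, from 15164650 to 15167491 (2842 bp), also held 7, over 78.6% of its length. Replicate 2 peaks covered at least 92.2% of each of these 6 members, with 2 separate peaks over the members that start at 9637530 and 8955586 and 1 over each of the others. The making of the series-wide list is not described in the labels or headers.

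The 21 replicate 1 peaks of the centre without a counterpart were narrower than the members, with a median of 1572 bp, and all met the series-wide list. The widest ran from 7916494 to 7925371 (8878 bp), 46572 bp from the nearest replicate 2 peak. The next 4 measured 4320, 4139, 3585 and 3268 bp and started at 6480229, 6489383, 7206625 and 5282978. Of the 21, 9 stood in 4 groups with neighbours at most 10 kb apart. The largest group, from 6478648 to 6493521, had 3 peaks that met 11 series-wide peaks, and the nearest replicate 2 peak was 14375 bp away. The 205 replicate 2 peaks without a counterpart had a median width of 1561 bp, and 31 met no series-wide peak. Their median distance from the nearest member was 9448 bp. The widest were 20005 bp (11898285 to 11918289), 13357 bp (8603727 to 8617083), 13331 bp (14781962 to 14795292), 9275 bp (7826077 to 7835351) and 7607 bp (12910398 to 12918004). The widest of them, broader than any member, met 3 series-wide peaks, against 1 to 6 for the 5 members over 10 kb.

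The borders of the centre fell in sparse stretches. The first member ran from 5268937 to 5276571 and the last shared peak before the border from 5113505 to 5114597. The last member ran from 15575534 to 15579082 and the first shared peak beyond the border from 16022632 to 16028795. No shared peak lay across either border.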

How the data were processed

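Chromatin was crosslinked with formaldehyde, sonicated and precipitated with 8WG16, and libraries were sequenced, per the labels' protocols. The submitters' processing notes name BWA and ce10, and the build is WormBase WS220, per the file headers. The authors deposited 3 peak lists: 1 for each precipitated sample and 1 series-wide. Each line names its caller, which is MACS in the lists of single samples and MACS v2 in the series-wide list. Their other values used here are the first and last base of each peak (1-based), as deposited. Caller settings, the input used as control and read numbers are not stated in the labels or headers. Scores were not used.

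Computation used scipy 1.17.1, pandas 2.3.3 and numpy 2.4.6 under Python 3.11.15, with matplotlib 3.10.9 for figures. V was taken as 20.9 Mb long, and other chromosomes as ending with their last listed peak. Shared means an overlap of at least 1 bp. Gaps run from end to start, and clusters join 3 or more neighbours at most 10 kb apart. The functions for overlap, clusters and coverage were tested on simulated lists. With 2 replicates of a single group, both used to choose the members, no test was made. The members, and the lists and limits used, were chosen with earlier results of these data known. Regions were named by rule: the 10 widest and 5 narrowest members, the 3 clusters with most members (ties by shorter span), the 5 members with most series-wide peaks (ties by width), the 5 longest gaps, the peaks next to each border and the 5 widest peaks of each replicate without counterpart. The fullest and most covered windows, the extremes of the width ratio, the bridging peaks, the unbroken domains and the group without counterpart were chosen after their values were seen, as were the 2 clusters and the member that the tie rules left out.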

Additional observations from a re-analysis of the deposited data

How the results depend on the processing

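Each of the 8 summary values was computed under other settings, 62 values in all, of which 37 stayed within the spread between the replicate lists (1 SD) or, for counts, within 1.5 times. The values of each replicate list alone are among the 62 and also set this SD. The count of 37 is therefore not an independent check. The excess of the centre over the arms kept its direction throughout, from 1.24 to 1.66. Requiring each peak to cover 50% of the other gave a median width of 2838 bp, a median gap of 25785 bp, 16 clusters, 25.6% of members in clusters and 2.45 series-wide peaks per member. With edges from replicate 2 the width was 3613 bp, the gap 16850.5 bp and the mean 3.19 series-wide peaks. Merging peaks less than 200 bp apart gave 2688 bp, 17001.5 bp, 34.6% in clusters and 2.52 series-wide peaks. Peaks of at least 1000 bp had a median of 2342.5 bp. With a narrower centre, from 1/3 to 2/3 of V, the median was 2413 bp and clusters numbered 24. A limit of 5 kb put 32.3% of members in clusters, and 20 kb put 64.6%. The median width was 2247 bp in replicate 1 alone and 2244 bp in replicate 2 alone, a spread of 2.12 bp that even small changes exceed. Between replicate 1 alone and replicate 2 alone, the number of peaks was 337 and 482, the median gap 11691 and 6975 bp, the clusters 41 and 65, the share in clusters 44.5% and 56.2%, the series-wide peaks per peak 2.26 and 2.40, and the covered share 74.2% and 57.3%. Scores were left out, so no stricter score threshold was tried. Read depth is unknown. No paired analysis was possible because the input samples were not analysed here and the precipitated samples form a single group.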

Other observations

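In the centre of V, 133 of 1342 series-wide peaks (9.91%, exact 95% binomial interval 8.36 to 11.6%) met neither replicate list, against 261 of 1105 in the arms (23.6%, 21.1 to 26.2%). The difference was not tested. In the centre their median width was 210 bp, and 75 of them lay over 10 kb from the nearest member, while 9 lay within 1 kb. The widest, from 6485693 to 6487455 (1763 bp), and the next, from 6487502 to 6488710 (1209 bp), lay between the replicate 1 peaks of the group without a replicate 2 counterpart at 6478648 to 6493521. A further 458 series-wide peaks of the centre (34.1%) met replicate 2 alone and 51 (3.80%) met replicate 1 alone. In the arms, 237 (21.4%) met replicate 2 alone and 142 (12.9%) met replicate 1 alone.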
